A study of Homo sapiens with 9 samples.

Results

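EphA receptors and ephrin-A ligands were followed in a human colorectal cancer line and 2 derivatives that express BASP1. The 10 genes, EPHA1, EPHA2, EPHA3, EPHA4, EPHA7, EFNA1, EFNA2, EFNA3, EFNA4 and EFNA5, were taken by name from the 63677 gene identifiers counted, and each of the 10 matched an identifier. SW480 is a hypotriploid line from a Dukes C colorectal adenocarcinoma and carried no vector. SW480-B is 1 single-cell clone of SW480 nucleofected with a plasmid in which the cytomegalovirus promoter drives the BASP1 coding sequence, selected with geneticin. SW480-gRNA-B-all, named Bsg for short, carries a lentiviral activator system, an MS2-tethered activator and a catalytically dead Cas9 fused to VP64 and GFP, taken through a cell clone, and a pool of guide RNAs against the promoter of the endogenous BASP1 gene, selected with puromycin. There were 3 poly(A) RNA libraries per line, 9 in all, with 25238831 to 29355669 fragments counted on genes per library. No library of a line with vector but without BASP1 was analysed here, so BASP1, the vector and the founding cell of a clone cannot be told apart. Nothing in the sources used here says that the 3 libraries of a line came from separate cultures, and p-values then measure only the spread between these libraries, which may be technical.

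Eph receptors are the largest family of receptor tyrosine kinases, and their ephrin ligands sit on the surface of neighboring cells. Ephrin-A ligands are held in the membrane by a lipid anchor and bind mainly EphA receptors, while ephrin-B ligands span the membrane and bind mainly EphB receptors. Contact sends a forward signal into the receptor cell, which reaches the actin cytoskeleton, and a reverse signal into the ligand cell. In the intestine, EphB receptors and ephrin-B ligands position cells along the crypt axis, and EPHA2 with its ligand EFNA1 is widely expressed in epithelial tumors.

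BASP1 itself was used to check the labels. Levels are given as counts per 1e6 counts on genes (CPM), scaled between libraries by trimmed means (TMM). BASP1 stood at 11.9, 8.03 and 0.691 CPM in SW480 replicates 1, 2 and 3, at 268, 268 and 250.3 CPM in SW480-B and at 167, 303 and 300.1 CPM in Bsg. Every library of both derivatives was above every SW480 library (log2 fold change 5.29, SE 0.85, adjusted p = 0.029 in SW480-B; log2 fold change 5.21, SE 0.92, adjusted p = 0.025 in Bsg; edgeR quasi-likelihood test). With 1 library left out, BASP1 kept its call in 2 of 6 fits of each comparison, all with the same direction, and with Bsg replicates 2 and 3 summed its adjusted p in Bsg was 0.083. The parental libraries differed widely from each other, also outside the Eph genes. Of 14023 genes with a mean of at least 1 CPM, 25.3% differed more than 2-fold between SW480 replicates 1 and 3, 15.6% between 1 and 2 and 9.53% between 2 and 3. Replicates 2 and 3 of Bsg were close, with a median absolute log2 difference of 0.07 and a mean chi-square of 3.13 per gene, against 80.9 to 83.2 for the other pairs of that line. The difference between those 2 libraries was above sampling noise. That noise covers counting error only, so the value cannot show whether they came from separate cultures. They were kept as 2 samples, with calls also given for their sum.

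Among the receptors, EPHA2 was the most abundant in every library. EPHA2 (ENSG00000142627; chr1:16450832-16482564, GRCh37, minus strand) stood at 488, 232 and 233 CPM in SW480, 317, 388 and 238 CPM in SW480-B and 428, 327 and 339.8 CPM in Bsg. SW480 replicate 1 was the highest of the 9 libraries, and the 3 lines overlapped. The means were 318 ± 148, 315 ± 74.9 and 365 ± 54.8 CPM (SD, n = 3 each). The level of EPHA2 did not pass the test in Bsg against SW480 (log2 fold change 0.19, SE 0.33, 95% interval -0.58 to 0.97, adjusted p = 0.72) or in SW480-B against SW480 (log2 fold change 0.02, SE 0.35, 95% interval -0.78 to 0.82, adjusted p = 0.98). With 1 library left out, the log2 fold change in Bsg ran from 0.04 to 0.66. The highest value was without SW480 replicate 1 (edgeR adjusted p = 0.071).

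EPHA4, a receptor that binds ligands of both classes, followed at a lower level. It stood at 76.0, 56.7 and 58.4 CPM in SW480, 117, 165 and 71.7 CPM in SW480-B and 112, 59.3 and 56.9 CPM in Bsg. SW480-B replicates 1 and 2 and Bsg replicate 1 were the highest, and SW480-B replicate 3 lay below the highest SW480 library, though each SW480-B library was above the SW480 library of the same number. The value of EPHA4 in SW480-B against SW480 did not pass the test (log2 fold change 0.92, SE 0.31, 95% interval 0.22 to 1.62, adjusted p = 0.21), nor did that in Bsg (log2 fold change 0.25, SE 0.30, adjusted p = 0.61). With replicate number as a block, EPHA4 in SW480-B did not pass either (edgeR adjusted p = 0.14).

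EPHA1, an epithelial receptor of the family, stood at 19.6, 13.4 and 13.7 CPM in SW480, 11.3, 9.73 and 7.81 CPM in SW480-B and 22.3, 13.7 and 12.7 CPM in Bsg. Every SW480-B library was below every library of the other lines, but the difference did not pass the test against SW480 (log2 fold change -0.66, SE 0.30, adjusted p = 0.33) or in the comparison of Bsg with SW480-B (log2 fold change 0.75, SE 0.28, adjusted p = 0.14, positive where Bsg is higher). EPHA3 had 0 counts in every library, and EPHA7 had 2 counts, both in SW480 replicate 2. A count of 0 allows up to 0.1002 to 0.116 CPM by library, taken as 3 counts and covering counting error only, so neither receptor was detectable above that floor and neither entered a test.

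Levels of different genes were compared as CPM per kilobase of exon. On that scale EPHA2 made up 85.9% ± 2.86 of the summed level of the 5 EphA receptors followed in SW480, 81.5% ± 2.10 in SW480-B and 87.0% ± 2.55 in Bsg (SD, n = 3). EPHA4 made up 10.2% ± 2.22, 16.3% ± 2.4 and 9.63% ± 2.07 of it. The share of EPHA4 ran from 13.8% to 18.6% in SW480-B, above the 7.62% to 11.6% of the SW480 libraries and the 8.16% to 12.0% of Bsg. These shares carry no test and leave out the other EphA receptors, of which EPHA10 had the highest level in Bsg, 1.62 CPM per kilobase. The summed EphA level was 132 CPM per kilobase in SW480 replicate 1, against 66.3 and 66.9 in replicates 2 and 3.

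**Figure D1:**
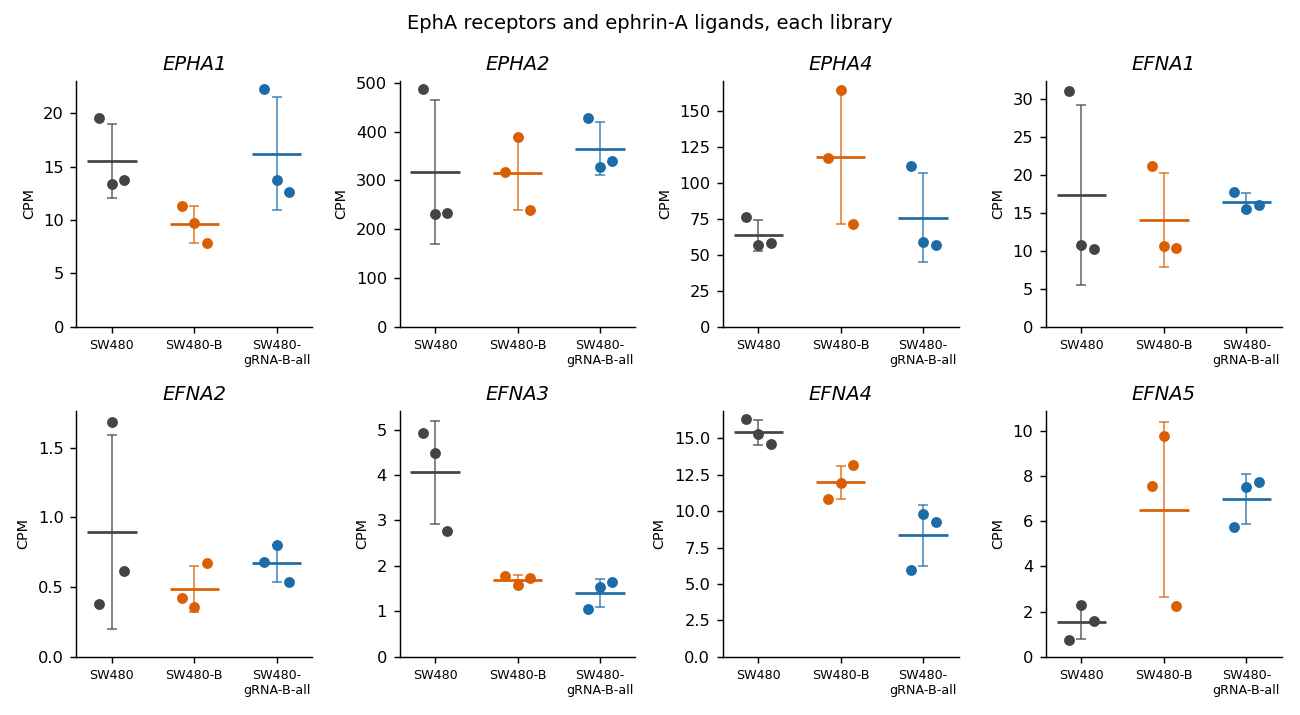
CPM of the 8 detected genes in each library; points are replicates 1 to 3 from left to right in each line, horizontal lines are means and bars SD (n = 3), and each y axis starts at 0. EFNA5 is below 2.28 CPM in all SW480 libraries and above 5.7 CPM in 5 of the other 6.

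Among the ligands, EFNA5 had a higher mean in both BASP1 lines and was called by edgeR in Bsg. EFNA5 (ENSG00000184349; chr5:106712595-107006638, GRCh37, minus strand) encodes a ligand known for axon guidance. It stood at 0.757, 2.27 and 1.56 CPM in SW480, 7.54, 9.77 and 2.23 CPM in SW480-B and 5.72, 7.51 and 7.71 CPM in Bsg. The Bsg libraries were all above the SW480 libraries, whereas SW480-B replicate 3 lay within the SW480 range, and each SW480-B library was above the SW480 library of the same number. EFNA5 was called higher in Bsg than in SW480, 4.53-fold (95% interval 2.20 to 9.32; log2 fold change 2.18, SE 0.44, adjusted p = 0.034), where called means an adjusted p under 0.05 over all genes tested and a change above 2-fold. With 1 library left out the log2 fold change ran from 1.86 to 2.61, while the call was lost in 4 of 6 fits. Without SW480 replicate 2 the adjusted p was 0.081 (log2 fold change 2.61), without Bsg replicate 1, 2 or 3 it was 0.082, 0.13 and 0.13 (2.31, 2.13 and 2.11), and with Bsg replicates 2 and 3 summed it was 0.13 (2.13). In those 5 fits, 8, 178, 78, 76 and 97 genes were called in all, against 1055. In SW480-B the difference from SW480 did not pass the test (log2 fold change 2.11, SE 0.63, 95% interval 0.66 to 3.56, adjusted p = 0.17). With replicate number as a block it did not pass either (edgeR adjusted p = 0.14). It passed by DESeq2 (adjusted p = 0.012) and by edgeR with no filter on low counts (0.037). Bsg against SW480-B had a log2 fold change of 0.10 (SE 0.47, adjusted p = 0.92).

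EFNA3, another ligand of the class, showed the opposite order. It stood at 4.92, 4.48 and 2.76 CPM in SW480, 1.78, 1.57 and 1.73 CPM in SW480-B and 1.05, 1.54 and 1.64 CPM in Bsg. Every library of both derivatives lay below every SW480 library. The difference missed the threshold in Bsg against SW480 (log2 fold change -1.53, SE 0.37, 95% interval -2.41 to -0.66, adjusted p = 0.052) and in SW480-B against SW480 (log2 fold change -1.22, SE 0.41, 95% interval -2.15 to -0.30, adjusted p = 0.21). It passed the threshold in Bsg with SW480 replicate 3 left out (adjusted p = 0.024), with all 9 libraries in 1 fit (0.024) and by DESeq2 (0.0027), and in SW480-B by DESeq2 only (0.042). In Bsg the other edgeR alternatives did not pass, with an adjusted p of 0.051 to 0.18. Among them were the replicate block (0.082) and Bsg replicates 2 and 3 summed (0.17).

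EFNA4 lies next to EFNA3 and also had lower values in both derivatives. It stood at 16.4, 15.3 and 14.6 CPM in SW480, 10.9, 11.9 and 13.1 CPM in SW480-B and 5.96, 9.81 and 9.28 CPM in Bsg. The 3 lines did not overlap, with SW480 highest and Bsg lowest. The values did not pass the test in Bsg (log2 fold change -0.89, SE 0.25, 95% interval -1.48 to -0.30, adjusted p = 0.073) or in SW480-B (log2 fold change -0.33, SE 0.25, adjusted p = 0.57) against SW480. In Bsg the adjusted p was 0.044 with all 9 libraries in 1 fit and 0.025 by DESeq2, with a change below 2-fold in both. The other edgeR alternatives gave 0.069 to 0.21, with 0.19 for Bsg replicates 2 and 3 summed. A read-through gene, EFNA4-EFNA3, shares 43.9% of the exon bases of EFNA3 and 15% of those of EFNA4 and was counted at 0 in every library, so fragments in the shared exons may have been set aside as ambiguous, and the levels of EFNA3 and EFNA4 are uncertain to that extent.

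EFNA1, the main epithelial ligand of EPHA2, stood at 31.2, 10.8 and 10.3 CPM in SW480, 21.3, 10.6 and 10.4 CPM in SW480-B and 17.8, 15.5 and 16.0 CPM in Bsg. Replicate 1 was the highest library in each line, most of all in SW480, and the lines overlapped. EFNA1 had a log2 fold change of -0.09 in Bsg against SW480 (SE 0.44, adjusted p = 0.91), and without SW480 replicate 1 it was 0.65 (adjusted p = 0.081). EFNA2 was near the lower end of detection, with 10 to 49 counts per library, and its values did not pass the test in any of the 3 comparisons.

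Per length, EFNA4 and EFNA1 made up most of the summed ephrin-A level in every line. EFNA4 held 55.2% ± 10.8 in SW480, 53.1% ± 10.7 in SW480-B and 40.0% ± 6.89 in Bsg (SD, n = 3), and EFNA1 held 32.6% ± 13.0, 34.8% ± 10.7 and 46.6% ± 7.86. EFNA5 held 1.29% ± 0.767 in SW480, 6.20% ± 3.84 in SW480-B and 7.37% ± 0.548 in Bsg. Its share ran from 6.76% to 7.82% in Bsg and stayed at or below 1.93% in SW480, while SW480-B ranged from 2.31% to 9.99%. EFNA3 held 9.11% ± 1.83, 4.80% ± 0.464 and 4.36% ± 0.634. EFNA5 thus remained a minor ligand by this measure. Over full exon lengths it was in sixth place of the 10 genes in both derivatives and eighth in SW480. In SW480 its range overlapped that of EFNA2 just above it, and in SW480-B it overlapped EPHA1 above and EFNA3 below. In Bsg it overlapped neither neighbor. EFNA3 shares 43.9% of its exon bases with EFNA4-EFNA3. If fragments there were set aside, its level per kilobase is too low. The order of EFNA3 and EFNA5 in both derivatives, and their lack of overlap in Bsg, may then not hold. EPHA2 was first in each line without overlap. In SW480 the range of EFNA1, 4.74 to 14.4 CPM per kilobase, took in those of EFNA4 and EPHA4. EPHA4, EFNA4 and EFNA1 overlapped each other in SW480-B and in Bsg, where EPHA1 also overlapped EFNA4.

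Promoter sequences are shown for EPHA2, the dominant receptor, for EFNA5, the gene called, and for the adjacent EFNA3 and EFNA4, which had lower values in the same lines. All 10 genes matched the RefSeq table (GRCh38.p14, unlike the GRCh37 gene positions above), which holds 250 bases before to 50 after each annotated start. Capitals mark matches, on both strands, to CTTTGA (the core bound by TCF and LEF factors), CACGTG (an E-box), GGGCGG (a GC box) and TGANTCA (an AP-1 site).
EPHA2, chr1:16156020-16156319, minus strand: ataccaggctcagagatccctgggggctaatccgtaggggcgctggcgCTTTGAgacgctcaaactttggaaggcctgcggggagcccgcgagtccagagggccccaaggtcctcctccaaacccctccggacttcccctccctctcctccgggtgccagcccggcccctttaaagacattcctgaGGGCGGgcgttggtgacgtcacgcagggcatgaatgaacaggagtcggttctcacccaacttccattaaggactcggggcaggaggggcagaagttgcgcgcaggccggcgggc
EFNA5, chr5:107670888-107671187, minus strand: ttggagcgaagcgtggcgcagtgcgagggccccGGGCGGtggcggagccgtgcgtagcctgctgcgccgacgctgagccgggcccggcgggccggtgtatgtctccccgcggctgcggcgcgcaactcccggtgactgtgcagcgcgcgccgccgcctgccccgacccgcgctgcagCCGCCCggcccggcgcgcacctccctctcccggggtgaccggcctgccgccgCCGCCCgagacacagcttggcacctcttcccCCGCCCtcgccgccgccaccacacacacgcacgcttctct
EFNA3, chr1:155078587-155078886, plus strand: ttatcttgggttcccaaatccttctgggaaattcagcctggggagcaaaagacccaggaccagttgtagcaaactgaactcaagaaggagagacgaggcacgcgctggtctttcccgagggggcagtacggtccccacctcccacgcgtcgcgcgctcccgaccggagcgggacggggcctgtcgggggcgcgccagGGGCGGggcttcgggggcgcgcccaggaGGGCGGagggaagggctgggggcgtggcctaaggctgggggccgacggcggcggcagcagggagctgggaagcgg
EFNA4, chr1:155063490-155063789, plus strand: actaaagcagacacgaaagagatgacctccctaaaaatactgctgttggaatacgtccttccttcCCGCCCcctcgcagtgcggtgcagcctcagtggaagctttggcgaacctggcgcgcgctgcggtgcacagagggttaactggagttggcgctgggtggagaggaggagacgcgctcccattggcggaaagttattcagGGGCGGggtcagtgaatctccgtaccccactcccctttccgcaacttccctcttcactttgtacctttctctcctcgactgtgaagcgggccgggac
Of 13 promoters of the 10 genes, 12 held GGGCGG, 1 held CTTTGA (EPHA2) and 0 held CACGTG or TGANTCA. Of all 35116 promoters in the table, 45.0% held GGGCGG, 12.9% CTTTGA, 7.26% CACGTG and 7.71% TGANTCA. A match is a string of letters in this window and was not tested for binding.

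In Bsg against SW480, which sets the line with guides to the BASP1 promoter beside its parent, 1 of the 8 genes tested was called by edgeR, EFNA5, which was higher. The background was 1.89% of 16100 genes called higher and 4.66% called lower. In all, 1055 genes were called there, against 8 without SW480 replicate 2 and 2659 without SW480 replicate 3. Of the 8 genes, 3 had an unadjusted p under 0.05, against 28.4% of all genes, and DESeq2 called 2, EFNA3 and EFNA5, against 11.9% of all genes it gave an adjusted p. In SW480-B against SW480, which sets the plasmid clone beside the same parent, 0 of 8 were called by edgeR, against 0.0931% of 16106 genes called higher and 1.25% lower; 3 had an unadjusted p under 0.05, against 15.8% of all genes, and DESeq2 called 2, EFNA3 and EFNA5, against 5.45%. In Bsg against SW480-B, which compares the BASP1 lines directly, 0 of 8 were called by edgeR or by DESeq2, against 2.31% of 15846 genes called higher and 4.37% lower by edgeR and 8.41% in either direction by DESeq2; 1 had an unadjusted p under 0.05, against 24.4% of all genes. The first 2 comparisons share the SW480 libraries. The median log2 fold change of the 8 genes was -0.02, -0.30 and 0.16 in the 3 comparisons, and that of all genes tested -0.05, -0.0039 and -0.0044.

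**Figure D2:**
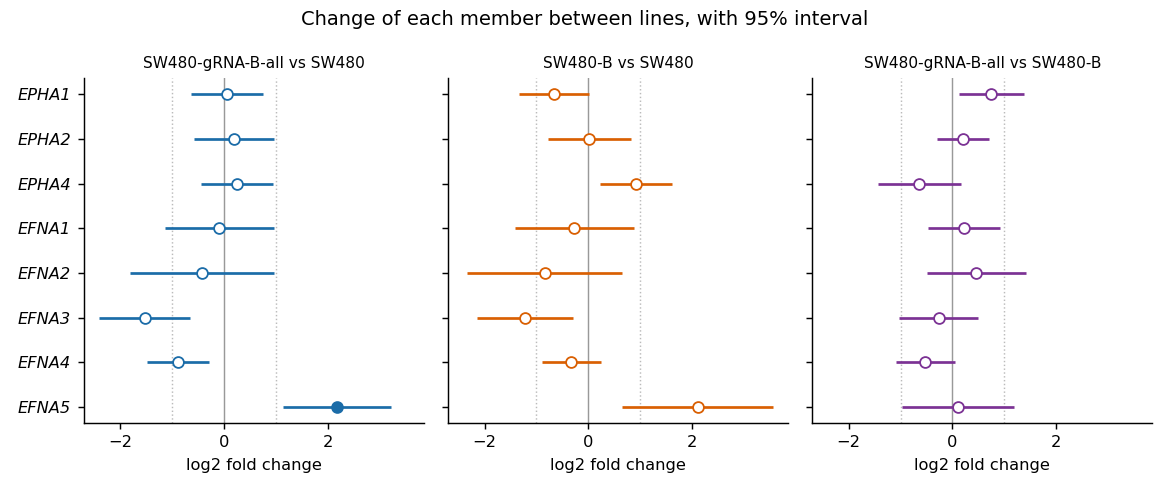
Log2 fold change of the 8 tested genes in the 3 comparisons, with 95% intervals from edgeR; dotted lines mark a 2-fold change and a filled point an adjusted p under 0.05 with a change above 2-fold. EFNA5 in Bsg against SW480, at 2.18, is the only filled point.

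EFNA4, EFNA3 and EFNA1 are neighbors on chromosome 1, from chr1:155036213 to 155107375 (GRCh37, plus strand). Within 100 kb of that stretch, 18 genes had a mean of at least 1 CPM, these 3 included. In Bsg against SW480, 1 of the 18 was called by edgeR, SHC1, which was higher, against 1.89% of all genes higher and 4.66% lower; 5 had an unadjusted p under 0.05, against 28.4%, DESeq2 called 2 (EFNA3 and SHC1), against 11.9%, and the median log2 fold change of the 18 was 0.21, with 6 below 0 and 12 above. EFNA3 and EFNA4 were the lowest of them, at -1.53 and -0.89, while ADAM15, which lies just before EFNA4, was at 0.42 (SE 0.25, adjusted p = 0.31) and SLC50A1, just after EFNA1, at 0.82 (SE 0.20, adjusted p = 0.055). In SW480-B against SW480, 0 of the 18 were called by edgeR, against 0.0931% of all genes higher and 1.25% lower, 2 had an unadjusted p under 0.05, against 15.8%, DESeq2 called 1 (EFNA3), against 5.45%, and the median was 0.15.

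By Pearson's r of log2(CPM + 0.5) over the 9 libraries, the genes most like EFNA5 among 13752 compared were TMEM104 (0.978), TEC (0.977) and AP1G2 (0.977). These values describe the pattern over libraries of 3 lines and carry no p. TMEM104, a membrane protein, was at 28.1 ± 4.19 CPM in SW480, 46.2 ± 12.8 in SW480-B and 44.1 ± 2.71 in Bsg (SD, n = 3).

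The B class of the family was set beside the A class. Of 8 EphB receptors and ephrin-B ligands, all 8 were tested in each comparison, and 1 was called higher and 4 lower in Bsg than in SW480 by edgeR, against 1.89% and 4.66% of all genes. Of the 8, 6 had an unadjusted p under 0.05, against 28.4% of all genes, and DESeq2 called 6, the same 5 and EPHB1, against 11.9%. EPHB2, a crypt receptor, stood at 10.7, 18.6 and 30.3 CPM in SW480, 8.77, 33.4 and 27.5 CPM in SW480-B and 56.5, 72.4 and 75.2 CPM in Bsg. Its Bsg libraries lay above the other 6 (log2 fold change 1.77, SE 0.37, adjusted p = 0.036 against SW480).

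EPHB6, a receptor without kinase activity, stood at 161, 176 and 124 CPM in SW480, 49.5, 49.9 and 81.6 CPM in SW480-B and 26.4, 16.5 and 20.4 CPM in Bsg. The lines did not overlap, and EPHB6 was called lower in Bsg than in SW480 (log2 fold change -2.87, SE 0.24, adjusted p = 0.0054) and than in SW480-B (log2 fold change -1.52, SE 0.26, adjusted p = 0.012). EFNB1, a transmembrane ligand, stood at 215, 225 and 548 CPM in SW480, 484, 468 and 444 CPM in SW480-B and 97.1, 92.8 and 100.3 CPM in Bsg. Its Bsg libraries were the lowest, below SW480 (log2 fold change -1.77, SE 0.38, adjusted p = 0.039) and below SW480-B (log2 fold change -2.27, SE 0.16, adjusted p = 0.00061). EFNB2, the ligand of EPHB4, stood at 44.8, 40.8 and 13.6 CPM in SW480, 16.5, 34.5 and 10.4 CPM in SW480-B and 6.23, 1.34 and 1.67 CPM in Bsg, where it was also called lower (log2 fold change -3.43, SE 0.74, adjusted p = 0.039 against SW480; log2 fold change -2.73, SE 0.66, adjusted p = 0.038 against SW480-B). EPHB3, also a crypt receptor, was the fourth called lower, at 20.8, 20.8 and 20.6 CPM in SW480, 23.6, 19.4 and 11.7 CPM in SW480-B and 7.42, 10.3 and 12.0 CPM in Bsg (log2 fold change -1.08, SE 0.23, adjusted p = 0.038 against SW480); SW480-B replicate 3 lay within the Bsg range. With 1 library left out, EPHB6 kept its call against SW480 in 5 of 6 fits, EPHB2 and EFNB1 in 2, and EPHB3 and EFNB2 in 1; against SW480-B, EFNB1 kept it in 6 of 6, EPHB6 in 4 and EFNB2 in 2, with every log2 fold change in the same direction. With Bsg replicates 2 and 3 summed, EPHB6 kept its call against SW480 (adjusted p = 0.036) and EFNB1 against SW480-B (0.0066), whereas against SW480 EPHB2, EPHB3 and EFNB2 were at 0.13 and EFNB1 at 0.15, and against SW480-B EPHB6 was at 0.057 and EFNB2 at 0.12.

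In SW480-B against SW480, 0 of the 8 were called by edgeR, against 0.0931% of all genes higher and 1.25% lower, 2 had an unadjusted p under 0.05, against 15.8%, and DESeq2 called 1, EPHB6, against 5.45%. In Bsg against SW480-B, 0 of the 8 were called higher and 3 lower by edgeR, against 2.31% and 4.37% of all genes, 6 had an unadjusted p under 0.05, against 24.4%, and DESeq2 called 5, the same 3 with EPHB1 and EPHB2, against 8.41%. Of the 4 other EphA receptors, EPHA5, EPHA6, EPHA8 and EPHA10, 2 were tested in each comparison. By edgeR 0 were called, against 1.89% of all genes higher and 4.66% lower in Bsg against SW480, 0.0931% and 1.25% in SW480-B against SW480, and 2.31% and 4.37% in Bsg against SW480-B. In that order, 2, 1 and 1 of them had an unadjusted p under 0.05, against 28.4%, 15.8% and 24.4% of all genes, and DESeq2 called EPHA8 in the first 2, against 11.9% and 5.45%, and neither in the last, against 8.41%.

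**Figure D3:**
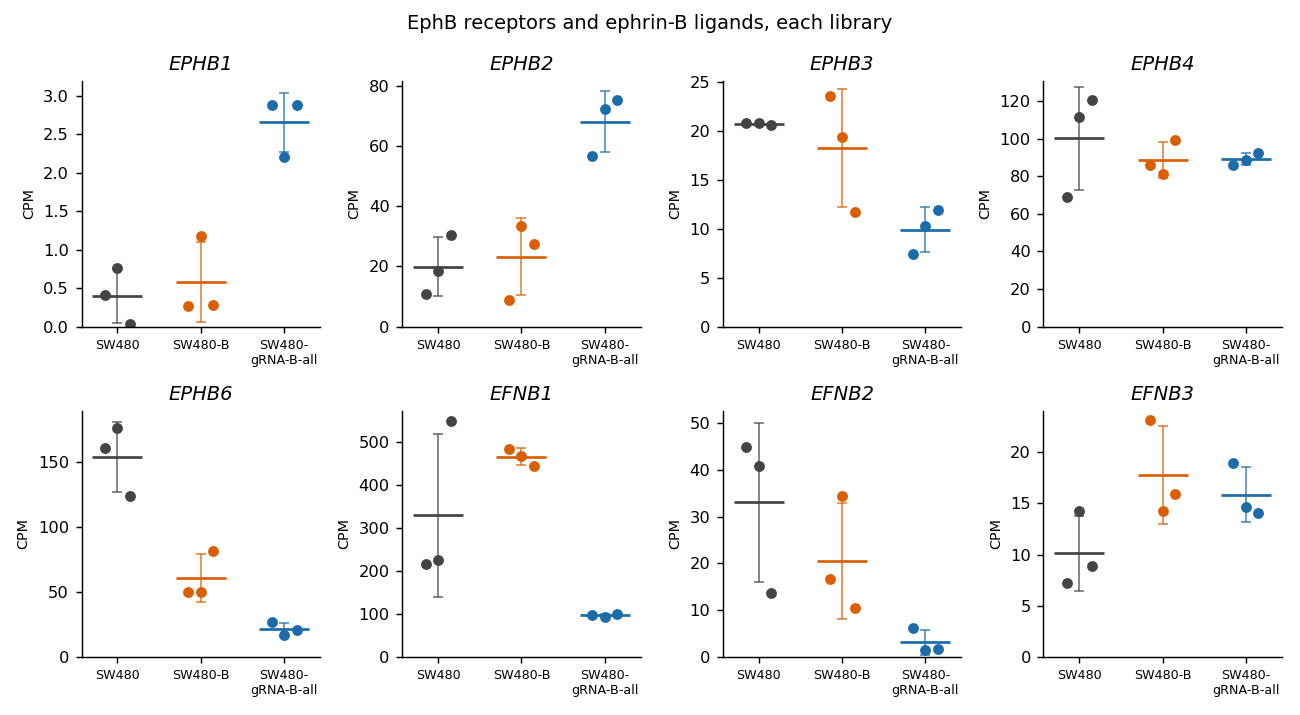
CPM of the 8 EphB receptors and ephrin-B ligands in each library; points are replicates 1 to 3 from left to right in each line, horizontal lines are means and bars SD (n = 3), and each y axis starts at 0. The Bsg libraries of EFNB1 lie between 92.8 and 100.3 CPM, below the other 6.

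Genes that carry or limit Eph signals were taken in 4 lists of 50 genes in all. In Bsg against SW480, 44 were tested, 1 was called higher and 2 lower by edgeR, against 1.89% and 4.66% of all genes. Of the 44, 15 had an unadjusted p under 0.05, against 28.4% of all genes, and DESeq2 called 8 of the 50, against 11.9%. SHC1, an adaptor at receptor kinases, stood at 70.4, 71.7 and 114 CPM in SW480, 176, 208 and 122 CPM in SW480-B and 227, 188 and 189 CPM in Bsg. Its libraries in both derivatives were above those of SW480, and it was called in Bsg (log2 fold change 1.23, SE 0.23, adjusted p = 0.028). CHN1, a Rac GTPase-activating protein that acts downstream of EPHA4, stood at 53.7, 47.5 and 50.6 CPM in SW480, 42.2, 43.7 and 39.2 CPM in SW480-B and 20.9, 19.5 and 18.1 CPM in Bsg. It was called lower in Bsg than in SW480 (log2 fold change -1.38, SE 0.15, adjusted p = 0.0083) and than in SW480-B (log2 fold change -1.10, SE 0.16, adjusted p = 0.0063). NTRK2, a neurotrophin receptor listed among partners of ephrin-A reverse signals, stood at 7.71, 23.0 and 24.5 CPM in SW480, 31.0, 72.9 and 41.6 CPM in SW480-B and 0.847, 1.74 and 1.77 CPM in Bsg. Its Bsg libraries were the lowest, below SW480 (log2 fold change -3.67, SE 0.54, adjusted p = 0.016) and SW480-B (log2 fold change -5.05, SE 0.43, adjusted p = 0.00099). With 1 library left out, CHN1 kept its call against SW480 in 3 of 6 fits, and SHC1 and NTRK2 in 2, with log2 fold changes of -1.43 to -1.32, 1.13 to 1.52 and -4.02 to -3.39; with Bsg replicates 2 and 3 summed, their adjusted p was 0.063, 0.099 and 0.077.

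In SW480-B against SW480, 45 of the 50 were tested and 0 called by edgeR, against 0.0931% of all genes higher and 1.25% lower, while 7 had an unadjusted p under 0.05, against 15.8%, and DESeq2 called 3 of the 50, against 5.45%. In Bsg against SW480-B, 44 were tested, 1 was called higher and 6 lower by edgeR, against 2.31% and 4.37% of all genes, 13 had an unadjusted p under 0.05, against 24.4%, and DESeq2 called 7 of the 50, against 8.41%. The higher one was PTPRF, a receptor phosphatase (log2 fold change 1.06, SE 0.17, adjusted p = 0.0082). Beside CHN1 and NTRK2, the lower ones were TIAM1, a Rac exchange factor (log2 fold change -1.70, SE 0.21, adjusted p = 0.0036), FYN, a SRC family kinase (log2 fold change -1.74, SE 0.34, adjusted p = 0.019), CBLB, a ubiquitin ligase (log2 fold change -2.12, SE 0.44, adjusted p = 0.022), and NGFR, the p75 neurotrophin receptor (log2 fold change -1.02, SE 0.20, adjusted p = 0.019). NGFR varied most within SW480, at 99.0, 673 and 916 CPM. TIAM1 had means of 46.6 CPM in SW480, 111 in SW480-B and 34.1 in Bsg. Its difference in Bsg against SW480 did not pass the edgeR test (log2 fold change -0.46, SE 0.31, adjusted p = 0.36). PTPRF, FYN, CBLB and NGFR were also not called by edgeR in Bsg against SW480. ADAM10, the protease that cuts ephrin-A ligands from the membrane, stood between 85.4 and 131 CPM in the 9 libraries and was not called. TIAM1 and NTRK2 kept their call in Bsg against SW480-B in 6 of 6 fits with 1 library left out. CHN1 and PTPRF kept it in 5, and FYN, CBLB and NGFR in 2, all with the same direction. With Bsg replicates 2 and 3 summed, TIAM1, NTRK2, CHN1 and PTPRF kept it, and FYN, CBLB and NGFR were at an adjusted p of 0.078, 0.098 and 0.096.

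Of 11 markers of colon epithelium, 0 of those tested were called higher in any comparison by edgeR. The share of all genes called higher was 1.89% in Bsg against SW480, 0.0931% in SW480-B against SW480 and 2.31% in Bsg against SW480-B. Called lower were 3 of 7 tested in Bsg against SW480, against 4.66% of all genes, 2 of 8 in SW480-B against SW480, against 1.25%, and 1 of 6 in Bsg against SW480-B, against 4.37%. The number called by DESeq2 was 4, 3 and 2 of the 11, against 11.9%, 5.45% and 8.41%. KRT8, KRT18, EPCAM and CDH1, general epithelial genes on this list, were not called in any comparison; CDH1 had an adjusted p under 0.05 in Bsg against SW480-B with a change below 2-fold (log2 fold change -0.89, SE 0.18, adjusted p = 0.02). The 11 markers summed to 7580, 8630 and 9530 CPM in SW480, 6200, 10200 and 7460 CPM in SW480-B and 5780, 7300 and 7250 CPM in Bsg. By CPM, KRT8 was the highest in every library. Per kilobase, the mean of KRT18 was above that of KRT8 in SW480 (886 against 716), SW480-B (868 against 706) and Bsg (752 against 589). Levels of EPCAM and KRT18 were also high in every library, at no less than 281 and 1653 CPM. EPCAM stood at 751, 578 and 460.3 CPM in SW480, 281, 292 and 331 CPM in SW480-B and 434, 348 and 340.4 CPM in Bsg. Every library of both derivatives was below every SW480 library, and the difference did not pass the test in SW480-B (log2 fold change -0.95, SE 0.26, adjusted p = 0.15) or in Bsg (log2 fold change -0.68, SE 0.23, adjusted p = 0.12). VIL1, an actin-binding protein of microvilli, stood at 344, 308 and 98.8 CPM in SW480, 29.6, 35.9 and 30.2 CPM in SW480-B and 21.5, 6.81 and 6.34 CPM in Bsg. CDH17, an intestinal cadherin, stood at 18.3, 6.17 and 1.64 CPM in SW480 and had 0 counts in the 6 libraries of the derivatives. Both were called lower in both derivatives. CDX2, an intestinal transcription factor, stood at 30.4, 30.7 and 41.9 CPM in SW480, 58.6, 67.4 and 58.2 CPM in SW480-B and 5.52, 2.70 and 2.37 CPM in Bsg. The lines did not overlap; CDX2 was called lower in Bsg than in SW480 (log2 fold change -3.28, SE 0.38, adjusted p = 0.009) and than in SW480-B (log2 fold change -4.12, SE 0.34, adjusted p = 0.00099), while its higher values in SW480-B than in SW480 did not pass the test (log2 fold change 0.87, SE 0.22, adjusted p = 0.12). Of the markers tested, 4 of 8 were above 0 in SW480-B against SW480 and 0 of 7 in Bsg against SW480. CDX1 had 0 counts in 5 of the 6 libraries of the derivatives. With 1 library left out, VIL1 and CDX2 kept their calls in Bsg against SW480 in 3 of 6 fits and CDH17 in 2, and VIL1 and CDH17 kept theirs in SW480-B in 2, all with the same direction. With Bsg replicates 2 and 3 summed, VIL1, CDX2 and CDH17 were at an adjusted p of 0.079, 0.05 and 0.086 against SW480, none under the threshold, and CDX2 kept its call against SW480-B (0.0053). The part of these differences in the Eph and ephrin values was not tested, and fewer cells of a type and less RNA per cell cannot be told apart in bulk RNA.

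Markers of other cell types were low. The 7 fibroblast markers summed to 2.90 to 10.9 CPM per library. By CPM, COL1A1 was the highest of them except in SW480 replicate 1, where it was LUM. Per kilobase, the mean of LUM in SW480 was above that of COL1A1 (1.19 against 0.447). Of the 7 fibroblast markers, 3 were tested in each derivative against SW480. LUM was called lower in both, where 4.66% of all genes were called lower in Bsg and 1.25% in SW480-B. COL1A1 was called higher in Bsg than in SW480 (log2 fold change 1.21, SE 0.25, adjusted p = 0.036), where 1.89% of all genes were. COL3A1 had 0 counts in every library. LUM kept its call in 2 of 6 fits in each derivative with 1 library left out and COL1A1 in 2, all with the same direction, and with Bsg replicates 2 and 3 summed they were at an adjusted p of 0.083 and 0.16 in Bsg. The 5 leukocyte markers summed to 1.03 to 5.90 CPM, led by LYZ or CD14, and the 3 endothelial markers matched to 0.861 to 4.40 CPM, led by VWF. Of these, 2 leukocyte markers and 1 endothelial marker were tested in each derivative against SW480, and edgeR called 0. VWF stood at 0.689, 0.896 and 0.873 CPM in SW480, 3.01, 2.74 and 1.38 CPM in SW480-B and 4.34, 1.67 and 1.97 CPM in Bsg, so that every library of both derivatives was above every SW480 library. Its difference from SW480 did not pass the edgeR test in Bsg (log2 fold change 1.69, SE 0.47, adjusted p = 0.071) or in SW480-B (log2 fold change 1.56, SE 0.47, adjusted p = 0.17), and DESeq2 called it higher in both. In Bsg against SW480-B, edgeR called 0 of the 5 tested (2 fibroblast, 2 leukocyte and 1 endothelial), against 2.31% of all genes higher and 4.37% lower. DESeq2, run on all genes with counts, called 3 markers, against 8.41%: CD14, CD3E and LYZ, of which CD3E was not among those 5. Their means were 1.97, 0 and 0.730 CPM in Bsg and 0.480, 0.574 and 2.98 CPM in SW480-B. PTPRC had 0 counts in 5 of the 6 libraries of the derivatives, and CDH5 in 7 of the 9 libraries. The part of these markers in the results was not tested.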

How the data were processed

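Per the file headers and methods, the authors aligned stranded poly(A) reads to GRCh37 with STAR and deposited raw fragment counts per Ensembl gene. The counter and its strand setting are not given in the sources used here, so antisense overlaps are uncertain. ZYX shares 1.75% of the exon bases of EPHA1, and a gene without a symbol shares 4.67% of those of EPHA4. The 5 closing lines of unassigned fragments were left out; 5.22% to 9.93% of fragments fell on no gene and 3.09% to 3.44% were ambiguous. Symbols matched 55665 of 63677 identifiers (99.4% of counts). Exon lengths came from GENCODE 44 on GRCh37, which may differ from the authors' annotation release.

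Each pair of lines was fitted over all genes with edgeR 4.0.16 in R 4.3.3 (filterByExpr with a minimum count of 10 and total of 15, TMM, robust quasi-likelihood test, Benjamini-Hochberg adjustment), tested on simulated counts. The members and lists were chosen with earlier results of these data known. Named genes were all members and the called genes of each list, up to 5 per direction. Some genes that edgeR did not call, such as ADAM10, EPCAM and VWF, were named as well. Alternatives were RLE factors, other filters, 1 fit of 9 libraries, a replicate block, DESeq2 1.42.0, each library left out, and Bsg replicates 2 and 3 summed. DESeq2 on the filtered genes was added after the DESeq2 results on all genes with counts were seen. Same-numbered libraries of SW480-B and SW480 deviated together (r = 0.312, 0.444 and 0.407). Bsg replicates 1 and 3 did so with SW480 (0.329 and 0.323) and SW480-B (0.29 and 0.318). Bsg replicate 2 did not (-0.0135 and -0.113), so the replicate block pairs it with libraries that it did not follow. Its highest r with a library of another number was 0.341 in SW480 and 0.389 in SW480-B. PECAM1 was not matched.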

Additional observations from a re-analysis of the deposited data

How the results depend on the processing

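Of 325 values of the 24 tested changes under alternatives, 298 kept their direction and call, 13 changed direction, 9 gained the call and 5 lost it. EFNA5 in Bsg against SW480 ranged from 1.86 to 2.61 (log2; adjusted p 1.9e-05 to 0.13). The changes of direction were all in values not called: EFNA1 in Bsg against SW480 was 0.11 with the replicate block, and EPHA2 in SW480-B was -0.014 with all 9 libraries in 1 fit. With 1 library left out, against SW480 in Bsg, EPHA1 ran from -0.24 to 0.27, EPHA4 from -0.13 to 0.43, EFNA1 from -0.32 to 0.65 and EFNA2 from -0.78 to 0.45; in SW480-B, EPHA2 ran from -0.17 to 0.46 and EFNA1 from -0.69 to 0.45; and EFNA5 between the BASP1 lines ran from -0.31 to 0.51.

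Members called in Bsg against SW480 numbered 2 with all 9 libraries in 1 fit and 2 by DESeq2 on all or on filtered genes, 0 with replicates 2 and 3 summed, and 0 to 2 with 1 library left out. In SW480-B against SW480 they numbered 1 with no filter and 2 by DESeq2 on all or on filtered genes, against 0. The number of all genes called also rose in these fits. In Bsg against SW480 it was 1580 with all 9 libraries in 1 fit and 2380 by DESeq2, against 1055. In SW480-B against SW480 it was 735 with no filter and 1096 by DESeq2, against 216.

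All genes called in Bsg against SW480 numbered 1055, against 2380 by DESeq2, 2100 by DESeq2 on the filtered genes, 97 with replicates 2 and 3 summed, and 8 (without SW480 replicate 2) to 2659 (without SW480 replicate 3) with 1 library left out. In SW480-B against SW480 they numbered 216, against 735 with no filter, 143 with at least 1 CPM in 3 libraries, 452 with all 9 libraries in 1 fit, 1096 by DESeq2, 953 by DESeq2 on the filtered genes, and 0 to 921 with 1 library left out. Of the 216, 15 were higher and 201 lower in SW480-B. The split was 198 and 537 with no filter, 366 and 730 by DESeq2, and 226 and 695 without SW480 replicate 3. Between the BASP1 lines all genes called numbered 1059, against 654 with all 9 libraries in 1 fit, 446 with replicates 2 and 3 summed, and 420 to 1548 with 1 library left out. The cause was not tested. DESeq2 on the filtered genes was chosen after seeing the data; it called the same number of members as DESeq2 on all genes with counts in each comparison.

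The replicate block changed no call of a member: it called 1, 0 and 0 of them, and 1199, 319 and 1389 genes. Low counts limit EFNA2, EFNA3 and EFNA5, which had the lowest totals of the members tested in each line, with 10 to 274 counts per library.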
